A study of Homo sapiens with 24 samples.

Results

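The 10 genes described here lie on chromosome 8 and were followed across the mRNA profiles of 4 aneuploid human cell lines. They were DLC1, TUSC3, TSPYL5, C8orf42, TEX15, MMP16, CSMD3, SFRP1, SDC2 and XKR5, 10 of the 520 chromosome 8 genes listed for a colorectal cancer line with an extra chromosome 8 and of 16742 genes listed for any line. They were selected on the fold changes that the study computed between that trisomic line and its parental line, as genes far above what a single extra copy gives. Those fold changes are not printed here, and the levels in that comparison describe how the genes were chosen and are no evidence for it.

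The trisomic line, HCT116* 8/3 c7, carries 3 copies of chromosome 8 and is a single clone obtained by moving the chromosome into HCT116* cells inside microcells. HCT116 is a line of a colorectal carcinoma with a modal number of 45 chromosomes, and the asterisk marks cells that express a histone H2B fused to green fluorescent protein. HCT116* and its trisomic derivative go back to HCT116 cells of a cell repository, whereas HCT116 5/4, with 4 copies of chromosome 5, and its own parental HCT116 came from another laboratory and lack the construct. RPE1 is a line of retinal pigment epithelium immortalized with telomerase, with a modal number of 46. RPE1 5/3 12/3 carries 3 copies of chromosomes 5 and 12, of which the latter was gained spontaneously, and was set against RPE1, and RPE1* 21/3 carries 3 copies of chromosome 21 together with the H2B construct and was set against RPE1*. All lines were grown in the same medium with serum, with no treatment named in the labels. From each line and each parental line 3 libraries were sequenced, and nothing in the labels says whether the 3 came from separate cultures.

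The level used here is the mean normalized count of a gene over all 6 libraries of a comparison, parental and aneuploid together, as the authors deposited it. It has no standard deviation, it cannot be split into its 2 groups, and no test can be run on it. The 4 sets of means are called tables after their aneuploid line, with the 8/3 table standing for HCT116* 8/3 c7. There were 15148 genes in the HCT116 5/4 table, 15610 in the 8/3 table, 14510 in the RPE1 5/3 12/3 table and 14292 in the RPE1* 21/3 table, and the sums of their means ranged from 18889290 to 23011803 normalized counts. The tables were normalized separately, so a level compared between tables was first divided by a scale factor, between 0.832 and 1.12, that sets the median gene outside the gained chromosomes level. Of 7 markers of colorectal epithelium 6 were listed in each HCT116 table, CDX2 and CDH1 among them, against 4 and 3 in the RPE1 tables, where CDX2 and CDH1 were not listed. Of 8 markers of pigment epithelium and of the mesenchymal state all 8 were listed in both RPE1 tables, but 8 and 7 were also listed in the HCT116 5/4 and 8/3 tables. Their median mean was 2569 and 2301 in the RPE1 tables against 192 and 137. The pigment epithelium markers RPE65 and PMEL went against the label, RPE65 with means of 10.4 and 4.58 in the RPE1 tables, below the 287 and 194 of the HCT116 tables, and PMEL with 17.8 and 14.8, below 97.1 and 137.

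Cells with an additional chromosome usually carry more transcripts of most of its genes, roughly as the number of copies grows. Many tumours in addition keep tumour suppressor genes silent through methylation of their promoters, and the short arm of chromosome 8 is frequently lost in colorectal cancer. SFRP1, SDC2, TUSC3 and DLC1 are known from such loss or silencing. DLC1 stimulates GTP hydrolysis by small GTPases such as RHOA and thereby switches them off, SFRP1 is a secreted antagonist of Wnt ligands, and TUSC3 is a subunit of the oligosaccharyltransferase that attaches sugar chains to new proteins in the endoplasmic reticulum. SDC2 is a heparan sulfate proteoglycan of the cell surface, MMP16 a metalloproteinase anchored in the membrane, and CSMD3 a very large membrane protein with CUB and sushi domains. XKR5 belongs to the family of XK-related membrane proteins, TSPYL5 to the nucleosome assembly proteins related to the testis protein TSPY. TEX15 is required for meiosis and for silencing of transposons in male germ cells, and C8orf42, now named TDRP, is known from the testis.

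The genes were not gathered in one place. On the GRCh37 assembly, 6 lie on the short arm of chromosome 8 and 4 on the long arm. From the tip of the short arm, C8orf42 spans bases 439803 to 495781, XKR5 6666038 to 6693046, DLC1 12940870 to 13462119, TUSC3 15274724 to 15624158, TEX15 30689060 to 30770524 and SFRP1 41119481 to 41166992. On the long arm, MMP16 spans 89044239 to 89340254, SDC2 97506041 to 97624018, TSPYL5 98285716 to 98290156 and CSMD3 113235157 to 114449168. TUSC3 and SDC2 are on the forward strand and the other 8 on the reverse strand. DLC1 shares its span with 6 annotated genes, 4 of them on the opposite strand and 1, C8orf48, coding for a protein. CSMD3 shares its span with 7, SFRP1 with 4, TUSC3 with 2 and MMP16 with 1, none of them protein coding, and the other 5 with none. No strand setting is named for the counting, so reads of genes that overlap on opposite strands may not have been told apart.

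All 10 genes were listed in the 8/3 table. The means were 649 normalized counts for DLC1, 534 for TUSC3, 337 for C8orf42, 287 for TSPYL5, 282 for MMP16, 263 for TEX15, 156 for CSMD3, 104 for SFRP1, 72.5 for SDC2 and 70.8 for XKR5. Since parental and trisomic libraries make equal parts of such a mean, neither group can lie above double the mean, which for DLC1 is 1299 and for XKR5 142. To compare genes with each other the means were divided by the length of all annotated exons. Per kilobase of exon TUSC3 came first with 103 normalized counts, followed by C8orf42 with 97.7, TSPYL5 with 64.6 and DLC1 with 50.7. The lowest was CSMD3 with 7.63 per kilobase, the gene with the longest exons, 20.4 kb in all. The median of the 10 was 22.7 per kilobase and that of all placed genes was 93.6 in the same table, and TUSC3 and C8orf42 were the ones above it.

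The first question was how these genes stood in HCT116 cells without the extra chromosome 8. Only DLC1, TUSC3 and SFRP1 were listed in the HCT116 5/4 table. Their means there were 8.98, 20.7 and 37.9 normalized counts, which limits the mean of either HCT116 or HCT116 5/4 to at most 18.0 for DLC1, 41.5 for TUSC3 and 75.8 for SFRP1. After rescaling DLC1 stood at 8.37 in the HCT116 5/4 table and at 579 in the 8/3 table, a ratio of 69.2. TUSC3 stood at 19.3 and 477, a ratio of 24.6, and SFRP1 at 35.3 and 93.1, a ratio of 2.63. The level of SFRP1 in the 8/3 table is thus only moderately above that in the other HCT116 table, whereas DLC1 and TUSC3 are separated by more than an order of magnitude.

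**Figure D1:**
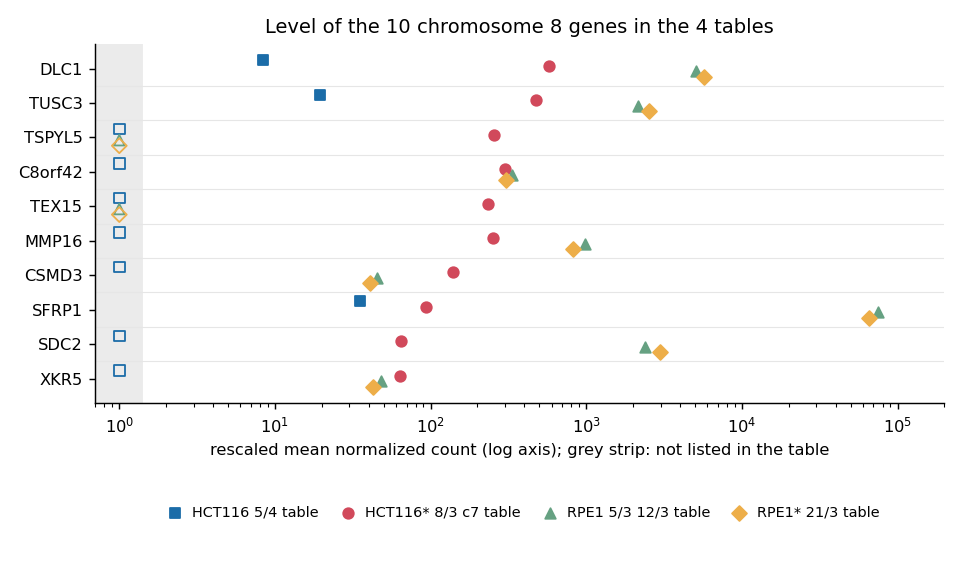
Level of the 10 genes in the 4 tables, as the authors' mean normalized count over 6 libraries after rescaling, on a logarithmic axis. Open symbols in the grey strip are genes that a table does not list and stand for no value. DLC1 and TUSC3 lie at 8.37 and 19.3 in the HCT116 5/4 table and at 579 and 477 in the 8/3 table, and SFRP1 reaches 74836 in the RPE1 5/3 12/3 table.

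The other 7, C8orf42, TSPYL5, MMP16, TEX15, CSMD3, SDC2 and XKR5, were not listed in the HCT116 5/4 table. A missing entry is not a level. HMGB2, with a mean of 5048 in the 8/3 table, and PRRC2A, with 5165, are also missing there, and both are found in the RPE1 tables, so no fold is given for the 7 genes. Of 12018 genes whose mean reached 50 in the 8/3 table, 14 were not listed in the HCT116 5/4 table, which is 0.116%. Of the 14, 8 lie on chromosome 8, which had 418 such genes, and 7 of these 8 are C8orf42, TSPYL5, MMP16, TEX15, CSMD3, SDC2 and XKR5. The eighth is CRISPLD1, with a mean of 63.6. Outside chromosome 8 there were 6 of 11600, namely PRRC2A, HMGB2, AP2S1, CAPG, ECI1 and TSPAN8. Where the mean reached 100, 10 of 11136 genes were not listed, and the 5 on chromosome 8 were all among the selected genes. The selection used the 8/3 comparison, and these counts describe it without testing it.

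For the 3 genes with a level in both HCT116 tables, the difference between tables was set beside that of all other genes, on the scale of log2 of the rescaled mean plus 1. The difference was 5.95 for DLC1, 4.55 for TUSC3 and 1.37 for SFRP1. Among 457 chromosome 8 genes listed in both HCT116 tables, with a mean of at least 10 in either, these were the first, second and ninth largest. Among all 14079 such genes they were number 3, 4 and 92. The other selected genes have no difference and no rank. A difference above 1 was found for 273 of the 14079 genes, or 1.94%, and for 19 genes, or 4.16%, on chromosome 8, all 3 of the selected genes being among the 19. The other 454 of the 457 chromosome 8 genes had a median difference of 0.15, and 5% of them were above 0.88. The median was 0.26 for 159 genes of the short arm, 0.091 for 295 genes of the long arm and 0.00041 for 13008 genes of other chromosomes. For comparison, 3 libraries with 3 copies averaged with 3 libraries with 2 copies would give 1.25 times the level if transcripts followed the copies, a difference of 0.32. DLC1, TUSC3 and SFRP1 were above that value. They were selected for a rise beyond dosage in the 8/3 comparison, so their place above it and in these rankings is no evidence for such a rise. The means also contain the parental libraries, and the HCT116 tables differ in the origin of their cells.

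**Figure D2:**
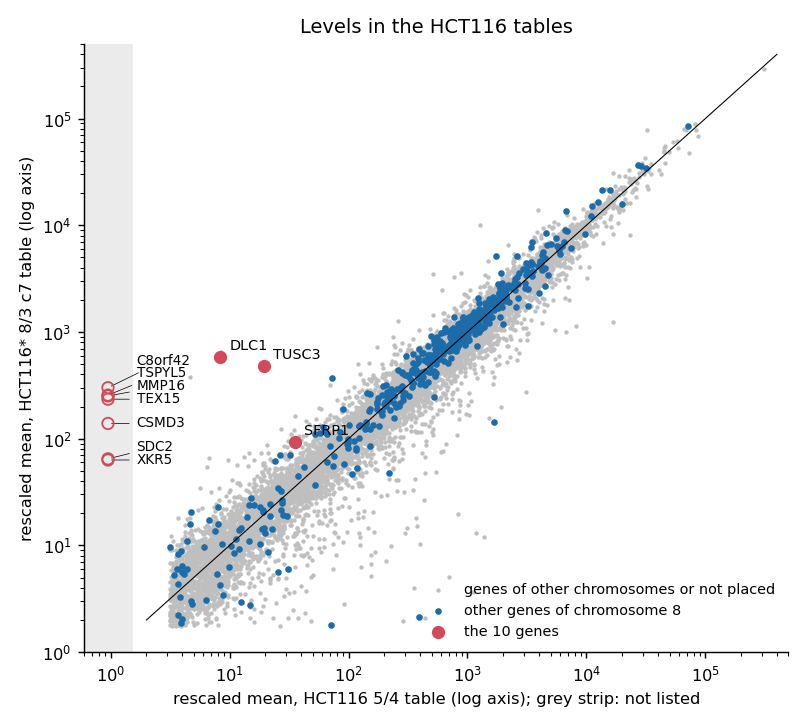
Rescaled mean normalized count in the HCT116 5/4 table (horizontal) against the 8/3 table (vertical), both axes logarithmic, for every gene listed in both. Blue points are chromosome 8 genes, grey points all other genes, red points the selected genes, and open red circles in the grey strip those not listed in the HCT116 5/4 table. The line marks equal levels, and DLC1 and TUSC3 lie far above it at 579 and 477.

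**Figure D3:**
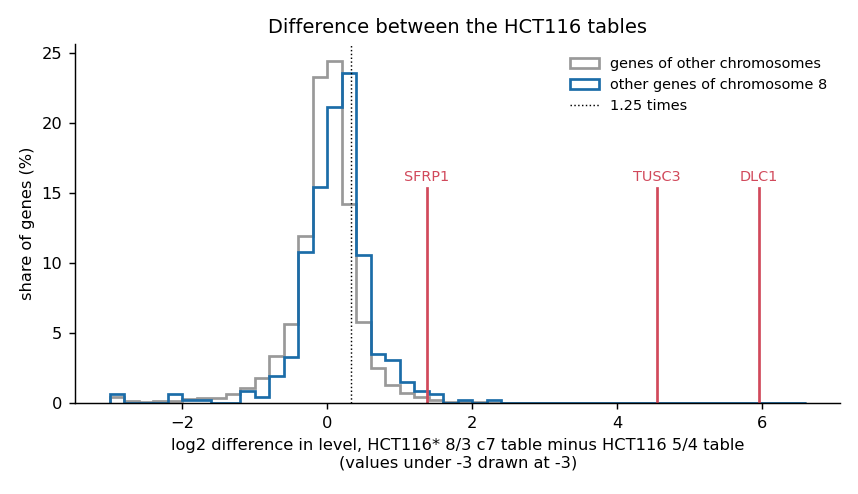
Distribution of the log2 difference between the HCT116 tables for genes of other chromosomes (grey) and the other genes of chromosome 8 (blue), as the share of genes in percent. Red lines mark SFRP1 at 1.37, TUSC3 at 4.55 and DLC1 at 5.95, and the dotted line marks 1.25 times the level.

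The HCT116 tables differ in more than chromosome 8, since the origin of the cells, the H2B construct and the 5/4 line itself change along with it, and these cannot be told apart in the means. The largest difference of any gene was that of HIST1H2BJ, a histone H2B gene of chromosome 6, at 6.11. Its rescaled mean was 655 in the 8/3 table and 21844 in the RPE1* 21/3 table, the tables of lines with the H2B construct, against 8.49 and 15.5 in the tables of the lines without it. The annexin gene ANXA10 of chromosome 4 followed at 6.07, with rescaled means of 380 in the 8/3 table and 4.68, 9.50 and 16.4 in the others. Both genes stood above DLC1. Whether the counts of HIST1H2BJ include reads of the H2B construct was not tested. A large difference between the HCT116 tables was not restricted to chromosome 8. After TUSC3 came SLC40A1 of chromosome 2 at 3.11, PALLD of chromosome 4 at 2.96 and GRHL3 of chromosome 1 at 2.89. On other chromosomes 228 of 13008 genes, or 1.75%, had a difference above 1. For chromosome 8 without the selected genes it was 16 of 454, or 3.52%. Between the RPE1 tables, of which one has the construct and the other not, the 8 selected genes listed in both differed by between -0.33 (SDC2) and 0.27 (MMP16) on the log2 scale. RPE1 is another cell type, and the effect of the construct on these genes in HCT116 cells was not tested.

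Neighbouring genes were examined to see whether whole stretches of chromosome 8 stood apart between the HCT116 tables. The nearest gene on either side with a level in both tables was taken, which gave 17 different neighbours at 11.8 to 3552 kb. Their median difference was 0.30, from -1.17 for CPQ to 0.59 for SYBU. The DLC1 and TUSC3 genes lie side by side in this sense and share their neighbours, LONRF1 at -0.27 and ZDHHC2 at -0.084. TEX15 lies 17.2 kb from PPP2CB, at 0.24, and C8orf42 11.8 kb from FBXO25, at 0.14. CPQ lies between SDC2 and TSPYL5, 33.5 kb from the former, and was lower in the 8/3 table, with a mean of 52.7 against 115. None of the 17 neighbours came near the differences of DLC1 and TUSC3. A gene missing from the HCT116 5/4 table could not count as a neighbour, and only the nearest gene on each side was taken. MTUS1, also on the short arm, was not among the 17 and differed by 1.58, with means of 1862 and 5823. The neighbours therefore do not show whether a longer stretch around DLC1 and TUSC3 stood apart. Within 1 Mb of DLC1 there were 4 genes with a median of 1.10, the highest of any of the stretches examined. Of them, FAM66D at 1.60, FAM86B2 with means of 26.0 and 68.5 and FAM86B1 at 0.91 belong to families with near-identical copies on the short arm and are uncertain, since reads may be split between copies. No gene with a level in both tables lay within 1 Mb of TUSC3, MMP16 or CSMD3.

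**Figure D4:**
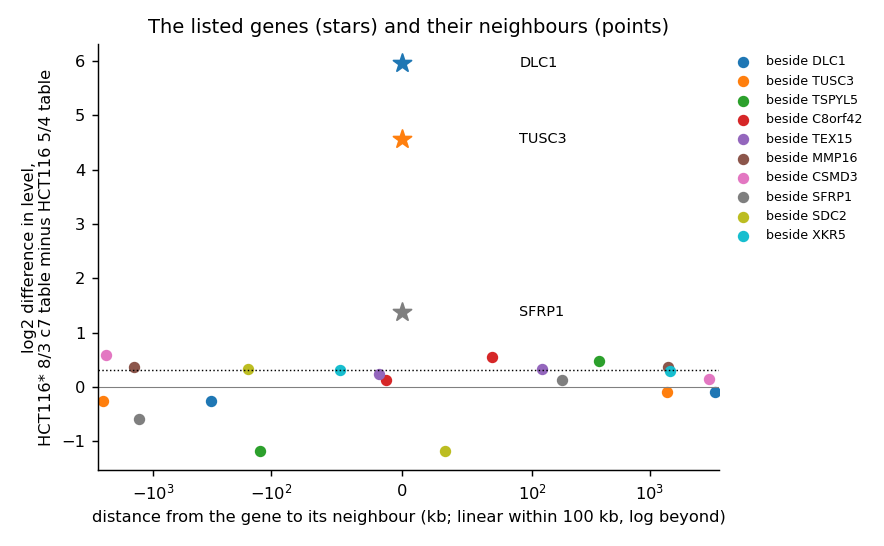
Log2 difference between the HCT116 tables for the nearest gene on either side of each selected gene (points, coloured by the gene they flank) and for DLC1, TUSC3 and SFRP1 themselves (stars), against the distance in kb. The dotted line marks 1.25 times the level, and all neighbours lie between -1.17 and 0.59, below the 3 stars.

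The next question was how the genes stood in cells of another origin. Of the 10, 8 were listed in both RPE1 tables, all but TSPYL5 and TEX15, which were listed in the 8/3 table alone. SFRP1 had a mean of 75332 normalized counts in the RPE1 5/3 12/3 table and 54455 in the RPE1* 21/3 table. After rescaling this is 804 and 703 times its level in the 8/3 table, so the SFRP1 level of the trisomic HCT116 comparison was far below that of RPE1 cells. DLC1 had means of 5105 and 4740 in the RPE1 tables, and SDC2 2392 and 2489. Relative to the 8/3 table the rescaled level of DLC1 was 8.75 and 9.84 times as high, and that of SDC2 36.7 and 46.3 times.

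TUSC3, with means of 2163 and 2102, was at 4.51 times its level in the 8/3 table in the first of them, and MMP16, with 991 and 681, at 3.92 times in the first and 3.25 times in the second. C8orf42 was at nearly the same level in all 3 tables that list it, with rescaled means of 301 in the 8/3 table and 335 and 307 in the RPE1 tables. CSMD3 and XKR5 were the genes with a higher level in the 8/3 table. The mean of CSMD3 was 156 there against 45.3 and 34.1, which after rescaling is 3.09 and 3.39 times the level of the RPE1 tables. XKR5 had 70.8 against 48.4 and 35.6, or 1.31 and 1.48 times. For SFRP1, DLC1 and TUSC3 the order of the rescaled levels was thus the HCT116 5/4 table, the 8/3 table and then the RPE1 tables, and SDC2 and MMP16 followed the same order from the 8/3 table on. Whether neighbouring levels in such an order differ cannot be said, since the means carry no error. Chromosome 8 is not gained in either RPE1 line, and the median difference of its 434 genes between the RPE1 tables was -0.029.

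DLC1, MMP16, SDC2, SFRP1 and TUSC3 had a rescaled mean of at least 500 in both RPE1 tables while below 50 or not listed in the HCT116 5/4 table. Chromosome 8 had 9 such genes in all. The other 4 were GDF6, STC1, SULF1 and TRPS1. In the 8/3 table the 5 selected genes reached at least 50, in the comparison that served to select them, STC1 stood at 8.77 and GDF6, SULF1 and TRPS1 were not listed. On other chromosomes 12 of 231 such genes, or 5.19%, reached at least 50 in the 8/3 table. Genes of chromosome 8 that are abundant in RPE1 and low in or missing from the HCT116 5/4 table therefore did not all have a level in the 8/3 table. These limits were set after the data were seen.

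Relatives and partners of the selected genes were examined next. Of the partners of DLC1, STARD13 and STARD8, which also act on small GTPases, and RHOA, RHOB, RHOC and CDC42 all had a level in both HCT116 tables. Their differences ranged from -0.67 for STARD8 to -0.057 for CDC42, with a median of -0.17, and RHOA, the main target of DLC1, had means of 13955 and 13517. The 9 other oligosaccharyltransferase subunits with a level in both tables had a median of 0.032, from -0.18 for STT3A to 0.27 for DDOST. STT3B stood at -0.056. MAGT1, which can take the place of TUSC3 in the complex, had means of 1906 and 2250. TUSC3 was 24.6 times higher in the 8/3 table, and none of these 9 subunits differed by more than 1 on the log2 scale.

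The 5 other membrane-type metalloproteinases had a median difference of -0.12, with means of 1392 and 1799 for MMP15 and of 889 and 800 for MMP14. Among 7 syndecans and glypicans other than SDC2 the median was -0.23, from -1.74 for GPC3, with means of 131 and 40.5, to 0.31 for SDC1. GPC3 was the only one of the 7 to differ by more than 1. GPC1 had means of 3792 and 3376, SDC3 3339 and 2903, and SDC4 2477 and 2796. The 3 relatives of TSPYL5 had a median of 0.28, and TSPYL1 had means of 3030 and 3893. The 4 XK-related genes had a median of -0.028, with XKR8, a scramblase of apoptotic cells, at a mean of 290.3 and 290.5. XKR6, also on chromosome 8, had a mean of 38.3 in the 8/3 table and was not listed in the HCT116 5/4 table. Among the germline genes set beside TEX15 the kinase-like gene TEX14 alone had a level above the limit in both tables, with means of 20.7 and 34.9. CSMD2, the relative of CSMD3, was listed at 4.27 and 7.25, below the limit used for differences.

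Of the Wnt antagonists besides SFRP1, DKK1 had means of 4666 and 10643 in the HCT116 5/4 and 8/3 tables, a difference of 1.13, and DKK3 15.7 and 4.59, a difference of -1.61. DKK4, itself a gene of chromosome 8, was listed in the 8/3 table alone, with a mean of 27.1. A list of 13 genes known for promoter methylation in colorectal cancer, chosen for this report and not complete, held SFRP1 as its only selected gene. SDC2, TUSC3 and DLC1, named above for loss or silencing, were not put on it. Of the genes on the list besides SFRP1, 4 had a level in both HCT116 tables, namely NDRG4 at 0.37, IGFBP3 at 6.2e-05, CDKN2A at -0.22 and VIM at -2.23. TMEFF2, BMP3, TFPI2 and CDH13 were listed in the RPE1 tables and in neither HCT116 table. GATA4, the other chromosome 8 gene of this list, was listed in the 8/3 table alone, with a mean of 23.5. The genes of the methylation machinery had a median difference of 0.045 over 7 genes, from -0.11 for TET1 to 0.75 for DNMT3B, a de novo methyltransferase with means of 381 and 669. DNMT1, which maintains methylation, had means of 5930 and 6962. DNA methylation itself was not measured in these libraries.

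Finally, the genes whose levels over the 4 tables were most like those of the selected genes were sought among 13107 genes listed in all of them. The pattern was the median of the 3 selected genes present in all 4 tables, with rescaled means of 19.3, 477, 5071 and 5699 in the HCT116 5/4 table, the 8/3 table, the RPE1 5/3 12/3 table and the RPE1* 21/3 table, and likeness was the Euclidean distance on the log2 scale. The nearest were GLIPR1 at 2.18, C10orf58 at 2.78, FBLIM1 at 3.03, CPA4 at 3.13 and ACTA2 at 3.23, none of which lies on chromosome 8. GLIPR1 had means of 37.2, 135, 4165 and 3746. Each of the 5 was low in the HCT116 tables and high in the RPE1 tables. None reached the step between the HCT116 tables that DLC1 and TUSC3 showed. The step of GLIPR1, from 37.2 to 135, was larger than that of SFRP1, from a mean of 37.9 to 104.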

How the data were processed

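The mRNA of 8 cell lines was sequenced with 3 libraries each, 24 in all, at about 25000000 single reads of 100 bp per library. Per the labels and the methods of the study, adapters were removed with cutadapt, reads were mapped to hg19 with TopHat 2.0.10, keeping 1 location per read, and counted on exons of RefSeq genes with featureCounts 1.4.3. The signal used here is the mean over 6 libraries of size-factor normalized read counts, which the authors computed and deposited in 1 table per comparison. The tables also hold the authors' DESeq2 fold change, its standard error, statistic, p-value and adjusted p-value, which are the study's own comparisons and were not used. Since only means over libraries were analysed, no count model, error or interval was computed, and the tables leave the depth of each library unknown. The fit per library foreseen in the design was not run.

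Tables were rescaled by the median of ratios over 9888 genes listed in all 4 whose means reached 10, outside chromosomes 5, 8, 12 and 21. Differences are log2 of the rescaled mean plus a pseudocount of 1, for genes listed in both tables whose mean reached 10 in either. Genes were placed by symbol, or by an older symbol from RefSeq, on GRCh37 with GENCODE, which located 94.7% to 95.2% of each table. Exon length is that of all GENCODE exons, not of the RefSeq models counted. The members and lists were chosen with earlier results of these data known. Named genes are the 10 members, their neighbours on the chromosome, the 5 genes of most similar levels and, of the lists, those with the highest means. Others were chosen after their values were seen. Among them are the genes missing from a table, the ends of each list, HIST1H2BJ, ANXA10, SLC40A1, PALLD, GRHL3 and those in the closing section. No sequence of chromosome 8 is printed. The rescaling and differences were tested on simulated data. Scripts were run in Python 3.11.15 with matplotlib 3.10.9, numpy 2.4.6 and pandas 2.3.3.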

Additional observations from a re-analysis of the deposited data

How the results depend on the processing

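With a pseudocount of 10 the difference of DLC1 between the HCT116 tables was 5.00 in place of 5.95. The other alternatives for DLC1, TUSC3 and SFRP1, which were no pseudocount, the means as deposited and scaling by the total of all means, kept the direction and stayed within 1.5 times, as did all 58 levels of single genes under the other scalings. The median of chromosome 8 was 0.15 when scaled by the total and 0.21 with the means as deposited, and 0.15 without the 10 genes. No paired analysis was possible because the tables hold means over 6 libraries and no values of single libraries. For the same reason the alternatives of a fit per library, which were DESeq2 size factors, no filter on counts and leaving out each replicate in turn, were not run. Without the limit on the means the median of chromosome 8 was 0.15. The lowest mean in the HCT116 5/4 table was 3.36, and why genes are missing from it was not tested.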

Other observations

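Beside the 10 genes, 5 chromosome 8 genes whose mean reached 20 in the 8/3 table were missing from the HCT116 5/4 table. They were CRISPLD1 at 63.6, already counted above, XKR6 at 38.3, EFHA2 at 33.1, the Wnt antagonist DKK4 at 27.1 and the transcription factor gene GATA4, known to be methylated in colorectal cancer, at 23.5. DKK4 and GATA4, like TSPYL5 and TEX15, were listed in no other table, whereas XKR6 had means of 71.4 and 61.8 in the RPE1 tables. These 5 were 1.16% of the 431 chromosome 8 genes at that level, against 6 of 12618 genes, or 0.048%, outside chromosome 8, with the 10 selected genes left out of both. In the other direction, 1 of 429 chromosome 8 genes, or 0.23%, and 41 of 12672 other genes, or 0.32%, whose mean reached 20 in the HCT116 5/4 table were missing from the 8/3 table. At a limit of 50, 1 of 408 chromosome 8 genes was missing from the HCT116 5/4 table, and 1 of 406 in the other direction, each 0.25%. Outside chromosome 8 it was 6 of 11600, or 0.052%, and 26 of 11644, or 0.22%. At a limit of 10 the chromosome 8 counts were 10 of 455, or 2.20%, and 1 of 445, or 0.22%. The limit of 20 was chosen after the data were seen, and a missing entry is not a level.

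Among chromosome 8 genes that were not selected, EGR3, an immediate early transcription factor gene, had the largest difference between the HCT116 tables. It was 2.32, with means of 78.1 and 413. LY6D followed at 1.90 with means of 5.09 and 22.9, FAM66D at 1.60, and MTUS1 at 1.58 with means of 1862 and 5823. MTUS1 is known as a tumour suppressor of the short arm. PSCA was at 1.42 with means of 8.53 and 25.8, and MTMR7 at 1.38 with means of 28.6 and 79.6.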
